A study of Mus musculus with 6 samples.

Results

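Immune checkpoint and co-stimulation genes were followed in CD45+ cells of the mouse spinal cord during experimental autoimmune encephalomyelitis (EAE). The 10 genes, out of 19449 in the single-cell table, were taken by name. Of them, *Pdcd1* (PD-1), *Ctla4*, *Lag3*, *Havcr2* (TIM-3), *Tigit* and *Icos* encode receptors of T cells, and *Cd274* (PD-L1), *Pdcd1lg2* (PD-L2), *Cd80* and *Cd86* encode ligands. The levels were read by library and by the cell cluster that the authors assigned to each cell.

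T cells need a signal through their antigen receptor and a co-stimulatory signal to become fully active. CD80 and CD86 on antigen-presenting cells give that signal through CD28, and CTLA-4, which T cells make after activation and regulatory T cells make constantly, competes for the same ligands. PD-1, LAG-3, TIM-3 and TIGIT restrain activated T cells, and PD-L1 and PD-L2 are the ligands of PD-1. ICOS is a co-stimulatory receptor that appears after activation, and interferons are strong inducers of PD-L1 in many cell types.

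The study asked how the age of the host changes neuroinflammation after T cell transfer. C57BL/6 recipients were young (8 to 12 weeks) or middle-aged (40 to 44 weeks) and received MOG-reactive, IL-23-polarized CD4+ T cells, which the study took routinely from CD45.1 congenic donors. CD45+ cells were sorted from spinal cord on day 6 or day 10 of adoptive transfer EAE, and 4 spinal cords went into each group. There was 1 library per age and day, and a further 2 bulk RNA-Seq libraries held microglia of young and middle-aged naive mice that received no treatment. The naive microglia were sorted as CD45-intermediate CD11b+ cells. Library handling and group cannot be told apart, and the deposited values do not separate donor from host T cells.

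Libraries held 8315 (young, day 6), 10026 (middle-aged, day 6), 9843 (young, day 10) and 9873 (middle-aged, day 10) cells, and values for 4 libraries are given in this order throughout. They held 57337626, 60500366, 69859331 and 66238489 unique molecular identifiers (UMIs, 1 for each captured RNA molecule), and 154 cell barcodes occurred in more than 1 library. Clusters were named from marker genes as T cell-like (2), neutrophil-like (0, 3 and 6), monocyte/macrophage-like (1 and 5), dendritic cell-like (7), microglia-like (8 and 10), B cell-like (4) and NK cell-like (9), and 11 to 15 stayed unnamed. None of the 10 genes that led cluster 0, 1, 5 or 8 was a marker of the name it carries, and the markers of dividing cells were also high in cluster 8 (median log2 ratio to all other cells 1.53, against 2.54 for microglia markers). All 8 T cell markers were detected in cluster 2, and *Cd3g*, *Cd3d* and *Trbc2* were among its 10 leading genes. The young day 10 library stood apart, since 73.1% of its T cell-like cells held 2 or more UMIs of neutrophil markers, against 9.10% to 11.7% in the other 3 libraries.

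Over all cells the members held 92404 UMIs (*Cd274*), 38912 (*Cd86*), 18664 (*Icos*), 15783 (*Ctla4*), 12594 (*Havcr2*), 9632 (*Pdcd1lg2*), 8748 (*Lag3*), 7597 (*Cd80*), 5435 (*Pdcd1*) and 360 (*Tigit*). The levels of *Tigit* therefore carried the widest counting errors. A pair of members on chromosome 19, *Cd274* (chr19:29367455-29388095, plus strand) and *Pdcd1lg2* (chr19:29410919-29471161, plus strand), were neighbours 22.82 kb apart in GRCm38. *Ctla4* (chr1:60887000-60915832) and *Icos* (chr1:60977927-61000320), both on the plus strand, lay 62.09 kb apart. The 250 bases before the start sites of the neighbouring PD-1 ligand genes are shown, since both genes fell from day 6 to day 10 in neutrophil-like cluster 0 and monocyte/macrophage-like cluster 1 but went opposite ways in T cell-like cells. They come from RefSeq (GRCm38.p6, chr19:29367188-29367437 and chr19:29410669-29410918, both plus strand), where 7 of the 10 members had an entry, and capitals mark a match to the NFAT core.
Cd274: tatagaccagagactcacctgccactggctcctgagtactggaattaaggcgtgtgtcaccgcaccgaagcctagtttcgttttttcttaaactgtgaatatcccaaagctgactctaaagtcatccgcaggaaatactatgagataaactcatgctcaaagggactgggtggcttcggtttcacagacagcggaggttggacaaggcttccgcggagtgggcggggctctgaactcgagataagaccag
Pdcd1lg2: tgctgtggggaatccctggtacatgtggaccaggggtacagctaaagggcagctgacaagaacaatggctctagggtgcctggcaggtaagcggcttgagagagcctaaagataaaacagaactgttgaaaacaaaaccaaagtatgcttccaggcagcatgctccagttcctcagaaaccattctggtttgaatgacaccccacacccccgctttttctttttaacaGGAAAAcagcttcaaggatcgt

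Both strands were searched for 5 motifs chosen after the expression values were known. The NFAT core (GGAAAA) occurred once in the *Pdcd1lg2* window, with its first base 22 bases before the start, and not in the *Cd274* window, while 20.4% of 32851 windows of this length held it. Neither window held the letters of an ISRE core (GAAA, any 2 bases, GAAA again, in 2.98% of windows), a GAS site (TTCNNNGAA, 7.02%), an AP-1 site (TGANTCA, 6.75%) or a kappaB core (GGGA, any base, then TTTCC, 0.356%). These matches describe the letters of a short window only, and binding of a factor was not measured.

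Of the 6 receptor genes, 3 rose in T cell-like cells between day 6 and day 10. *Lag3* rose most, *Havcr2* and *Tigit* rose to a lesser extent, and *Ctla4*, *Pdcd1* and *Icos* did not pass the test. Of the 10 members tested in T cell-like cells, 4 rose and 2 fell, while 3.97% of the 11362 genes tested in this cluster were called higher and 3.25% lower. This comparison used edgeR's quasi-likelihood test on UMI sums per library with age as a block and Benjamini-Hochberg adjustment over all genes of a cluster. Adjusted p values for day are from this test unless DESeq2 is named. Those for age are from the same fit with day as the block. No age had a replicate library on either day, so these p values and SEs do not measure the spread between replicates. The fit could judge a day change only by how far it differed between the ages, and borrowed most of its spread from other genes.

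*Lag3*, whose product binds MHC class II and dampens T cell activation, was at 12, 45.2, 188 and 174 CPM in T cell-like cells, where CPM is a gene's UMIs per 1000000 UMIs of the same cluster and library. Both day 10 libraries were above both day 6 libraries, and the log2 fold change from day 6 to day 10 was 2.98 ± 0.34 (SE, adjusted p = 9.1e-06). Leaving out either young library leaves the middle-aged pair to set the value and allows no test, and the change was then 1.98. The share of T cell-like cells with a *Lag3* UMI, with each cell thinned to 2000 UMIs, was 1.41%, 4.11%, 21.1% and 17.7%. In neutrophil-like cluster 0, taken as a cell type that should lack *Lag3*, it was at most 0.601%, at a median of 2269 UMIs per cell against 5318 in T cell-like cells. Without thinning, the T cell-like shares were 3.90%, 10.4%, 39.8% and 31.9%.

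*Havcr2*, the gene of the inhibitory receptor TIM-3, was at 24.6, 51.0, 66.0 and 61.1 CPM in T cell-like cells. The day 10 libraries lay above those of day 6, with the young day 6 library lowest, and the change was 0.93 ± 0.24 (SE, log2, adjusted p = 0.018). Without either young library it was 0.30, and without either middle-aged library 1.60. *Tigit*, a receptor that competes with CD226 for the ligand PVR, was at 2.40, 4.08, 5.70 and 8.54 CPM, from 17, 28, 79 and 132 UMIs. It rose by 1.24 ± 0.29 (SE, log2, adjusted p = 0.011). DESeq2 did not call either gene (adjusted p = 0.92 for *Havcr2* and 0.38 for *Tigit*).

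*Ctla4* was at 201, 222, 266 and 343 CPM in T cell-like cells, higher in both day 10 libraries than in both day 6 libraries. Its change of 0.62 ± 0.19 (SE, log2) did not pass the threshold (adjusted p = 0.055), but passed it under 6 alternatives (adjusted p between 0.012 and 0.045). *Pdcd1* was at 83.2, 70.8, 95 and 96.2 CPM, a change of 0.42 ± 0.18 (SE, log2, adjusted p = 0.21). *Icos* was at 359, 420, 268 and 346 CPM, and here the highest library was the middle-aged one on day 6 and the lowest the young one on day 10. Its change was -0.24 ± 0.19 (SE, log2, adjusted p = 0.59).

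**Figure D1:**
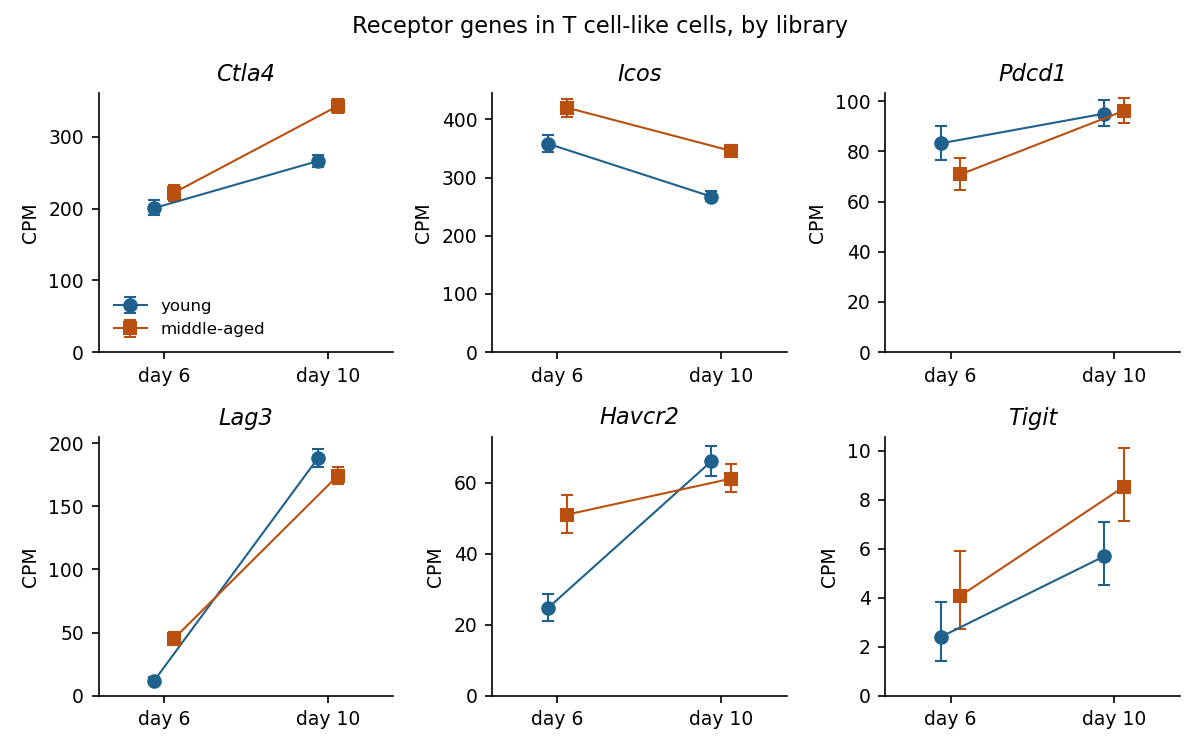
CPM of the 6 receptor genes in T cell-like cells (cluster 2) on day 6 and day 10, 1 point per library, with lines joining the libraries of 1 age and bars for the exact 95% Poisson interval of the UMI count. *Lag3* stands at 12 and 45.2 CPM on day 6 and at 188 and 174 CPM on day 10, whereas *Icos* is not higher on day 10.

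Ligand genes were also read in T cell-like cells. *Pdcd1lg2* rose there, at 13.8, 24.2, 42.9 and 37.3 CPM (1.21 ± 0.23, SE, log2, adjusted p = 0.0017, and 0.66 without either young library), while *Cd274* fell, at 67.5, 69.6, 28.4 and 28.5 CPM (-1.16 ± 0.17, SE, log2, adjusted p = 0.00018). *Cd86* fell from 19.2 and 21.6 CPM to 9.38 and 8.03 CPM (-1.12 ± 0.22, SE, log2, adjusted p = 0.0026). *Cd80* was between 9.26 and 11.7 CPM in all 4 libraries and was not called (adjusted p = 0.99). In the same libraries *Cd274* was at 850 to 2400 CPM in neutrophil-like cluster 0 and *Cd86* at 127 to 350 CPM in monocyte/macrophage-like cluster 1, and the part of RNA from such cells in the T cell-like values was not tested. *Cd274* and *Cd86* went the same way in T cell-like cells as in clusters 0 and 1, and *Pdcd1lg2* went the opposite way.

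More T cell-like cells carried several receptor RNAs on day 10. With cells thinned to 2000 UMIs, 2.67% (34 of 1275), 4.57% (50 of 1095), 8.41% (158 of 1878) and 10.7% (253 of 2357) of T cell-like cells held UMIs of 3 or more of the 6 receptor genes. The exact binomial 95% intervals ran from 1.85% to 3.71%, 3.41% to 5.98%, 7.20% to 9.76% and 9.51% to 12.05%, and covered counting error only. Cells with none of the 6 made up 43.5%, 35.8%, 30.5% and 28.6%. Without thinning, 12.2%, 19.9%, 39.99% and 37.3% of cells held 3 or more, so that the order of the day 10 libraries turned. Thinning left out 32, 42, 45 and 106 shallower cells.

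**Figure D2:**
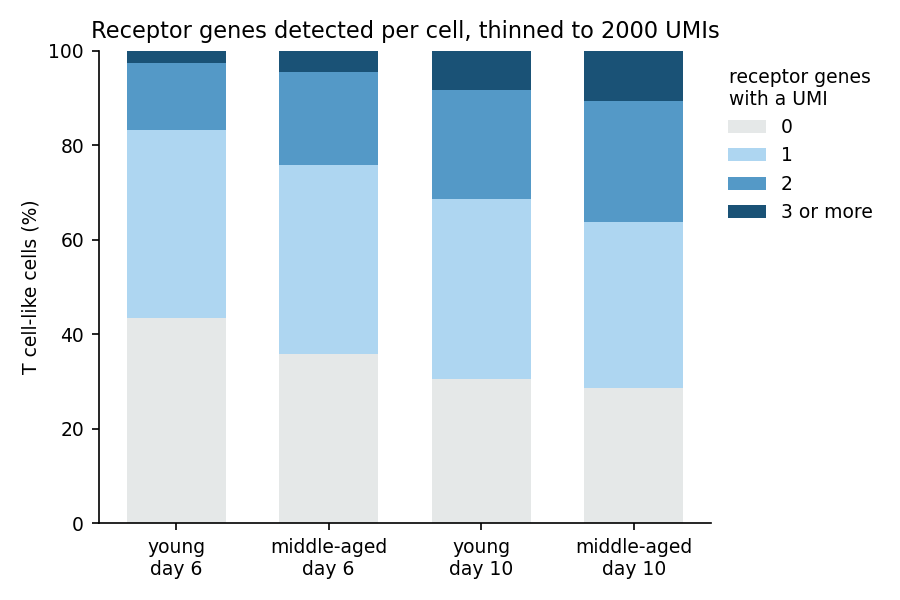
Share of T cell-like cells (percent) with UMIs of 0, 1, 2 or at least 3 of the 6 receptor genes in each of the 4 libraries, each cell thinned to 2000 UMIs. The dark segment for 3 or more genes is 2.67% and 4.57% of cells on day 6 and 8.41% and 10.7% on day 10.

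Pairs of receptor genes were found in the same cells to different degrees. In the middle-aged day 10 library after thinning, 30.7% of 199 T cell-like cells with a *Havcr2* UMI also held *Lag3*, against 16.5% of the 2158 without one. *Pdcd1* was found in 25.1% and 13.6% of the same cells. *Ctla4* and *Icos* went together as well, since 54.8% of 840 cells with *Ctla4* held *Icos*, against 35.4% of 1517 without it. *Lag3* and *Icos* showed no such excess, with *Lag3* in 16.5% of cells with and 18.7% of cells without *Icos*. In the young day 10 library the same shares of *Lag3* were 27.7% with and 20.5% without *Havcr2*.

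Cells with *Foxp3*, the defining transcription factor of regulatory T cells, differed in which receptors they held. After thinning, 73.9%, 87.5%, 66.7% and 71.7% of the 23, 8, 27 and 46 cells with a *Foxp3* UMI also held *Ctla4*, and 18.5%, 22.9%, 30.3% and 34.9% of the other T cell-like cells did. *Icos* was in 71.7% of the middle-aged day 10 cells with *Foxp3* and in 41.7% of the rest. *Lag3* went the other way in that library, in 8.70% (exact 95% interval 2.42% to 20.8%) of cells with *Foxp3* and 17.9% (16.4% to 19.5%) of the rest, and the intervals overlapped. Among 4 regulatory T cell markers tested by edgeR in T cell-like cells, 0 were called by day, with 0 at an unadjusted p under 0.05 and 0 called by DESeq2.

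The T cell-like cells did not move only in the members. Beside each list in this cluster stand the shares of all genes called by day, 3.97% higher and 3.25% lower. Of 12 T cell activation and exhaustion factors, 6 rose and 0 fell from day 6 to day 10. Their median log2 change was 0.45, against -0.00093 over all genes tested. The largest rises were those of *Nr4a1* (121, 157, 364 and 351 CPM, 1.48 ± 0.21, SE), *Nr4a3* (38.7, 63.5, 117 and 140 CPM, 1.47 ± 0.20, SE) and *Nr4a2* (54.5, 54.1, 116 and 126 CPM, 1.27 ± 0.18, SE), orphan nuclear receptors induced by antigen receptor signalling. *Irf4*, *Nfatc1* and *Maf* were the other 3. Of 14 partner receptors, *Cd160* (1.72 ± 0.25, SE) and *Cd200r1* (0.82 ± 0.18, SE) rose and the co-stimulatory receptor *Cd27* fell by 0.76 on the log2 scale (SE 0.21). Of 7 partner ligands tested of 14, only *Lgals9*, the gene of galectin-9, was called, and it fell by 0.92 on the log2 scale (SE 0.17). Rises of *Nr4a* genes were not particular to T cell-like cells. *Nr4a3* rose by 1.89 (SE 0.28) in microglia-like cluster 10 and *Nr4a2* by 2.47 on the log2 scale (SE 0.65) in cluster 8. In monocyte/macrophage-like cells *Nr4a1* and *Nr4a2* fell in cluster 1, and *Nr4a2* fell in cluster 5. The stimulus behind these changes was not tested.

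Between day 6 and day 10 all 4 ligand genes fell in neutrophil-like cluster 0 and monocyte/macrophage-like cluster 1, 3 of 4 in monocyte/macrophage-like cluster 5, 2 of 4 in microglia-like cluster 8, 1 of 4 in dendritic cell-like cells and 0 of 4 in microglia-like cluster 10. The shares of all genes called differed widely between these clusters. In either direction they were 54.4% in cluster 0, 29.9% in cluster 1, 13.4% in cluster 8, 6.48% in cluster 7 and 6.64% in cluster 10. In cluster 5, 15.3% of genes were called lower. Over the 11 clusters with 50 or more cells in every library, 84 tests of members were made for the day effect, and 32 were called, 11 higher and 21 lower, against 7.33% higher and 8.71% lower of 100854 gene tests. Of 40 tests of the 4 ligands, 19 were lower and 1 was higher, and of 44 tests of the 6 receptors, 10 were higher and 2 lower. Of the higher receptor calls, 3 were in T cell-like cells, 4 in cluster 5 and 1 each in clusters 1, 7 and 9. Those in clusters 5, 7 and 9 are set beside T cell markers below.

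*Cd274* had its highest level in neutrophil-like cluster 0, at 2128, 2400, 856 and 850 CPM. The day 10 libraries lay far below those of day 6, by 2.16 ± 0.14 (SE, log2, adjusted p = 1.9e-08), while 54.4% of the genes of this cluster were called. Scaling by library totals instead moved the median change of all genes in cluster 0 from 0.079 to 0.84 on the log2 scale. The ratios of the CPM values themselves, a fall of 2.49-fold in the young and 2.82-fold in the middle-aged, rest on totals. The share of cluster 0 cells with a *Cd274* UMI after thinning was 88.6%, 90.2%, 59.3% and 60.2%. *Cd274* in neutrophil-like cluster 3 was at 386, 584, 13 and 126 CPM (-3.70 ± 0.47, SE, log2, adjusted p = 0.00040), and here the 2 day 10 libraries differed widely, with a change of -2.61 without the young one. In this cluster 17.8% of genes were called, and *Cd80* fell there as well (-1.74 ± 0.31, SE, log2, adjusted p = 0.0028).

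*Cd80* and *Pdcd1lg2* fell in cluster 0 too, from 96.9 and 84.7 CPM to 64.0 and 54.0 CPM for *Cd80* (-1.38 ± 0.14, SE, log2, adjusted p = 1.2e-06). *Pdcd1lg2* went from 79.2 and 114 CPM to 53.1 and 53.6 CPM (-1.60 ± 0.16, SE, log2, adjusted p = 1.1e-06). The size of both falls depends on the scaling. By the CPM values, which rest on library totals, the fall in the young was 1.51-fold for *Cd80* and 1.49-fold for *Pdcd1lg2*. The falls of *Cd86* (30.2, 10.6, 17.9 and 13.4 CPM) and *Havcr2* (40.9, 60.8, 54.5 and 50.8 CPM) in cluster 0 lost their calls with another scaling. Leaving out single libraries moved *Cd86* between -0.45 and -1.49 and *Havcr2* between -0.31 and -1.08. With library totals, *Cd86* was at -0.23 (adjusted p = 0.40) and *Havcr2* turned to 0.057 (adjusted p = 0.77) on the log2 scale.

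All 4 ligands fell in the large monocyte/macrophage-like cluster 1, where 29.9% of genes were called. Of its cells, 50.7%, 61.5%, 96.0% and 73.0% held 2 or more neutrophil marker UMIs. Cells with markers of another lineage, by the limits given below, made up 23.7%, 30.3%, 73.9% and 41.2%. The part of RNA from neutrophils in the ligand values of this cluster was not tested. *Cd86* was at 348, 350, 127 and 135 CPM (-1.58 ± 0.20, SE, log2, adjusted p = 7.7e-05), with both ages nearly equal on each day. *Cd80* was at 49.2, 37.2, 13.8 and 13.4 CPM (-1.82 ± 0.19, SE, log2, adjusted p = 1.3e-05). *Cd274* was at 386, 518, 207 and 160 CPM (-1.46 ± 0.24, SE, log2, adjusted p = 0.00064). *Pdcd1lg2* was at 34.8, 84.8, 21.1 and 16.1 CPM (-1.73 ± 0.32, SE, log2, adjusted p = 0.0014), where the middle-aged day 6 library stood above the other 3, and the change was -2.63 without either young library and -0.82 or -0.83 without a middle-aged one. DESeq2 did not call *Pdcd1lg2* (adjusted p = 0.14). *Havcr2*, which monocytes and macrophages also express, was at 57.0, 70.8, 39.9 and 36.3 CPM and fell by 0.91 on the log2 scale (SE 0.20, adjusted p = 0.0040). *Lag3* was called higher in cluster 1 (1.41 ± 0.43, SE, log2, adjusted p = 0.026) at levels of 0.42 to 2.25 CPM, and moved between 0.73 and 2.19 when single libraries were left out.

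Of 8 partner ligands tested in cluster 1, 4 fell and 0 rose, while 29.9% of all its genes were called in either direction. *Cd40*, the activating receptor of presenting cells for CD40 ligand, was at 128, 145, 45.6 and 30.6 CPM (-2.03 ± 0.23, SE). *Lgals9* (-1.36 ± 0.20, SE) and *Pvr* (-0.85 ± 0.19, SE) were the next largest. In dendritic cell-like cluster 7, *Lgals9* fell by 1.54 (SE 0.21) and *Cd40* by 1.35 on the log2 scale (SE 0.21), and none of the other 8 partner ligands tested there was called. In cluster 5, *Cd40* fell by 2.87 (SE 0.18), *Lgals9* by 1.91 (SE 0.17) and *Pvr* by 0.80 on the log2 scale (SE 0.23), 3 of 7 tested. In microglia-like clusters 8 and 10, edgeR called 0 of 6 and 0 of 7 partner ligands by day, with 2 and 1 at an unadjusted p under 0.05. In neutrophil-like cluster 0, 1 of 6 partner ligands rose and 3 fell, where 54.4% of all genes were called. In cluster 3, 1 of 3 fell and 0 rose, with a median log2 change of 1.03 over those 3, where 17.8% were called. The share of all genes called was 6.48% in cluster 7, 13.4% in cluster 8 and 6.64% in cluster 10. In cluster 5, 15.3% of all genes were called lower.

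**Figure D3:**
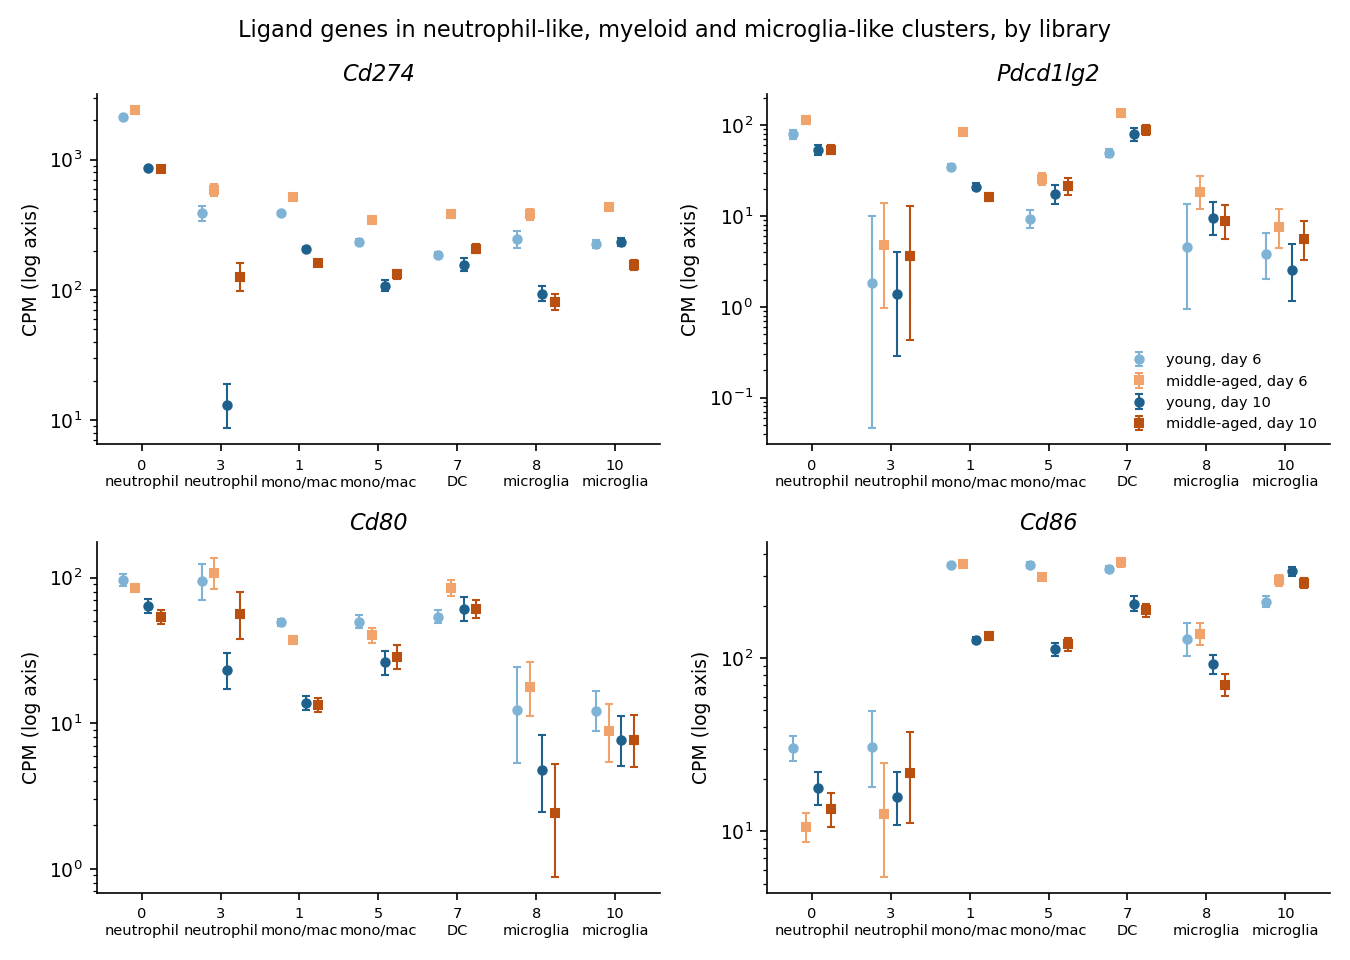
CPM (log axis) of the 4 ligand genes in neutrophil-like (0, 3), monocyte/macrophage-like (1, 5), dendritic cell-like (7) and microglia-like (8, 10) clusters, 1 point per library with the exact 95% Poisson interval of its UMI count. In cluster 1 both day 10 points lie below both day 6 points for each ligand, whereas *Cd86* in cluster 10 is lowest in the young day 6 library, at 212 CPM.

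Dendritic cell-like cells held *Cd86* at 328, 358, 207 and 189 CPM, a fall of 0.86 on the log2 scale (SE 0.20, adjusted p = 0.011), in a cluster where 6.48% of genes were called. The other 3 ligands were not called there by day. *Cd274* was at 185, 384, 156 and 206 CPM and *Pdcd1lg2* at 49.4, 135, 79.8 and 89.4 CPM, both highest in the middle-aged day 6 library. *Cd80* was at 54.0, 84.9, 61.2 and 60.9 CPM. *Lag3* rose in this cluster, at 12.9, 15.3, 22.3 and 40.1 CPM (1.03 ± 0.26, SE, log2, adjusted p = 0.021). Without cells that held a UMI of *Cd3e*, *Cd3d*, *Cd3g*, *Trac*, *Trbc1* or *Trbc2* its change was 0.30 (adjusted p = 0.59).

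**Figure D4:**
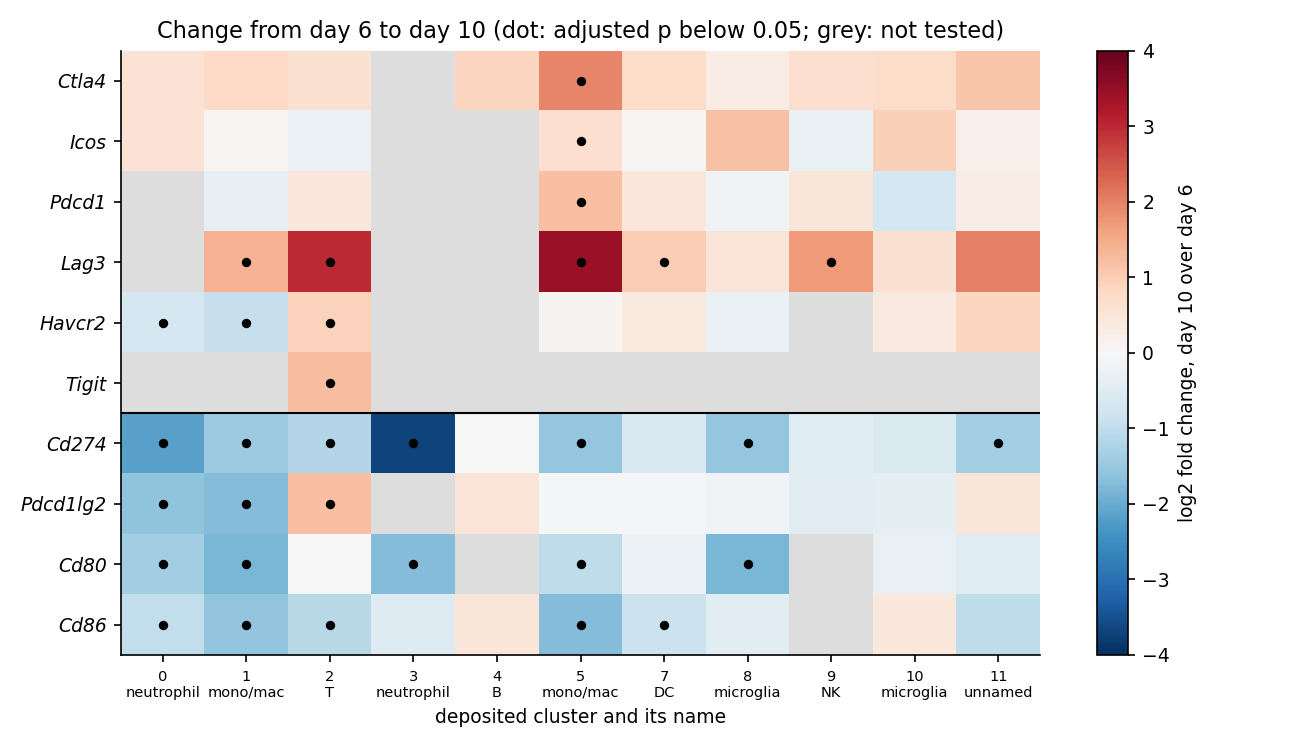
Log2 fold change from day 6 to day 10 (colour) of the 6 receptor genes (above the line) and 4 ligand genes in the 11 clusters tested, with a dot where the adjusted p of edgeR's quasi-likelihood test was below 0.05. Of 40 ligand tests 19 are called lower and 1, *Pdcd1lg2* in T cell-like cells, higher.

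Monocyte/macrophage-like cluster 5 held both patterns, with 4 receptors called higher and 3 ligands called lower on day 10, where 10.2% of genes were higher and 15.3% lower. *Cd86* was at 345, 296, 113 and 121 CPM (-1.74 ± 0.17, SE, log2, adjusted p = 3.0e-06). *Cd274* was at 233, 343, 108 and 131 CPM (-1.54 ± 0.17, SE, log2, adjusted p = 9.5e-06). *Lag3* was at 1.28, 6.06, 39.8 and 50.04 CPM (3.44 ± 0.32, SE, log2, adjusted p = 1.9e-06), and *Ctla4* at 8.97, 15.7, 36.5 and 85.1 CPM (1.96 ± 0.20, SE, log2, adjusted p = 4.3e-06). *Icos* was at 28.8, 48.9, 52.3 and 102 CPM, and *Pdcd1* at 4.61, 9.30, 19.0 and 19.1 CPM, with a change of 0.72 or 0.73 in place of 1.21 (log2) without a young library. *Cd80* was at 49.8, 40.2, 26.1 and 28.6 CPM (-1.003 ± 0.19, SE, log2, adjusted p = 0.0012).

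T cell markers rose with these receptors in cluster 5. The 6 T cell markers together were at 328, 438, 1000 and 1411 CPM, and 13.1%, 16.4%, 30.3% and 49.4% of its cells held 2 or more of their UMIs. In cells of cluster 5 without any such UMI (668, 497, 246 and 150 cells), *Ctla4* was at 0.85, 0.42, 1.44 and 3.87 CPM and *Icos* at 0.51, 0.63, 1.44 and 0.77 CPM. *Lag3* and *Pdcd1* were at most 1.92 and 0.48 CPM in those cells. Cells with 2 or more neutrophil marker UMIs made up 52.8%, 79.1%, 97.1% and 75.0% of the cluster. Leaving out all cells with markers of another lineage, which removed 31.0% to 90.7% of cluster 5, *Cd86* still fell (-0.98, adjusted p = 0.00077), whereas *Cd274* was at -0.0047 (adjusted p = 1.0) and *Cd80* at 0.12 (adjusted p = 0.93) on the log2 scale.

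**Figure D5:**
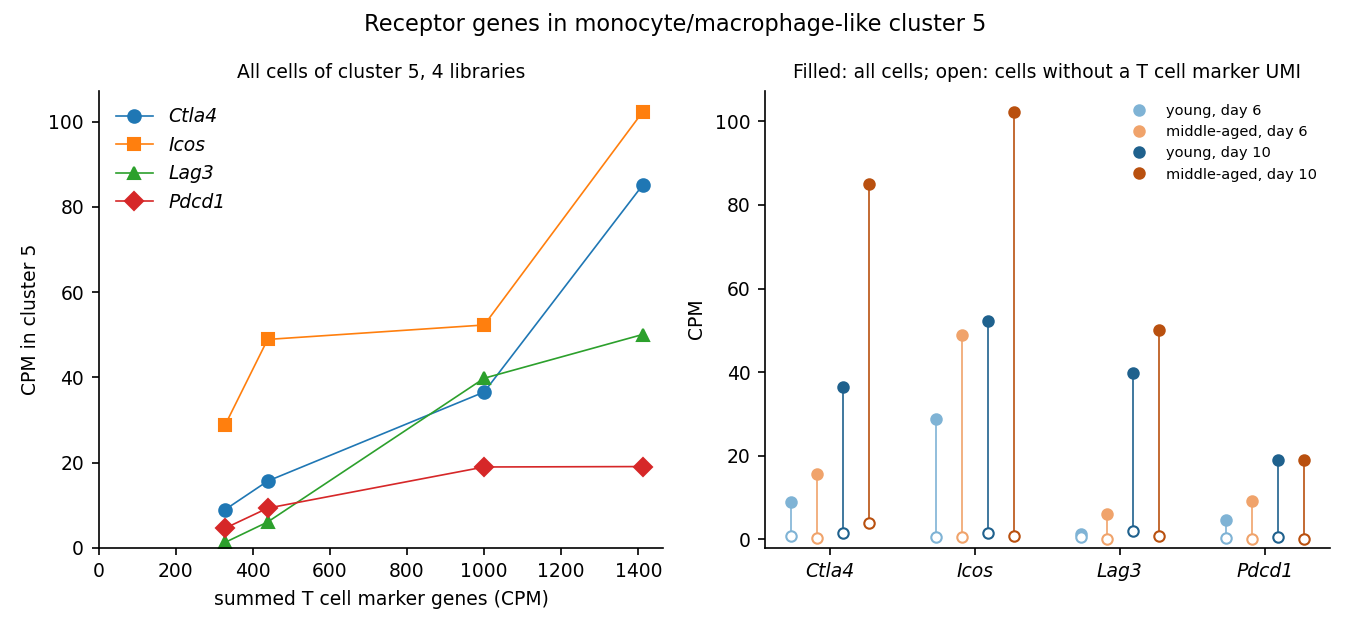
Receptor genes in monocyte/macrophage-like cluster 5. On the left, CPM of 4 receptor genes against the summed CPM of 6 T cell marker genes, 1 point per library, joined in order of the marker level. On the right, CPM in all cells (filled) and in cells with no T cell marker UMI (open), where *Icos* falls from between 28.8 and 102 CPM to at most 1.44 CPM.

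Microglia-like cluster 10 held *Lag3*, *Havcr2* and *Cd86* with few T cell markers. *Lag3* was at 74.2, 52.0, 76.3 and 99.5 CPM, above the 12 and 45.2 CPM of T cell-like cells on day 6 and below the 188 and 174 CPM on day 10. In the young day 6 library 49.9% of all *Lag3* UMIs came from cluster 10, which held 5.20% of the cells, and 16.6% came from T cell-like cells. The middle-aged day 6 library had the opposite order, with 19.3% from cluster 10 and 48.4% from T cell-like cells. On day 10 these shares were 7.29% and 71.0% in the young and 8.21% and 68.6% in the middle-aged library. The T cell markers were at 78.8, 57.1, 138 and 89.9 CPM in cluster 10, against 4871 to 5360 CPM in T cell-like cells. Cells of cluster 10 without any T cell marker UMI held *Lag3* at 75.2, 54.2, 73.2 and 97.2 CPM, close to the level in all its cells.

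*Havcr2* in cluster 10 was at 84.7, 112, 111 and 113 CPM, and 15.1%, 22.9%, 17.1% and 21.5% of its cells held a UMI after thinning. In B cell-like cells, which should lack it, the share was at most 1.23%, at a median of 2697 UMIs per cell against 8214 in cluster 10. *Cd86* was at 212, 282, 319 and 271 CPM in this cluster, without the fall seen in monocyte/macrophage-like cells. *Pdcd1* was at 20.9, 31.1, 11.1 and 17.6 CPM, and nearly the same in cells without T cell marker UMIs (21.9, 30.0, 11.4 and 18.3 CPM). Of the 9 members tested by day in cluster 10, 0 were called by edgeR, with 2 (*Lag3* and *Pdcd1*) at an unadjusted p under 0.05, while 6.64% of genes were called there. In microglia-like cluster 8, *Cd274* fell, at 244, 379, 93.4 and 80.8 CPM (-1.54 ± 0.22, SE, log2, adjusted p = 4.6e-05), and so did *Cd80* (-1.84 ± 0.51, SE, log2, adjusted p = 0.019, and -1.04 or -1.06 without a middle-aged library), while 13.4% of genes were called. Without cells that held markers of another lineage, *Cd274* in cluster 8 was at -0.68 (adjusted p = 0.14).

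Bulk microglia of naive mice held the same 3 genes. Read counts of *Lag3* were 22579 in the young and 26611 in the middle-aged library, those of *Havcr2* 22787 and 20630, and those of *Cd86* 17421 and 17631, of totals of 79373420 and 76293436. Per kilobase of exon these were 135 and 165 CPM for *Lag3*, 106 and 99.4 for *Havcr2* and 59.9 and 63.1 for *Cd86*. *Tmem119* and *P2ry12*, defining genes of microglia, had 258429 or more counts in each library, while of the 6 T cell markers *Cd3e*, *Cd3g* and *Trbc1* had 0 counts in both libraries, *Trbc2* had 0 and 2, *Cd3d* 12 and 36 and *Trac* 14 and 6. A lower share of a cell type and less RNA per cell cannot be told apart in bulk RNA.

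Age differences in naive microglia stayed below 2-fold for the members with 100 or more counts, and the largest of these was that of *Pdcd1*. As a log2 ratio of the middle-aged to the young CPM, the difference was 0.29 (exact 95% interval 0.27 to 0.32) for *Lag3*, -0.086 (-0.11 to -0.059) for *Havcr2* and 0.074 (0.044 to 0.10) for *Cd86*. It was 0.72 (0.58 to 0.86) for *Pdcd1* (703 and 1111 counts) and 0.38 (0.25 to 0.51) for *Cd274* (881 and 1102 counts). *Cd80* had 1764 and 1715 counts and *Icos* 165 and 168. *Ctla4*, *Tigit* and *Pdcd1lg2* had 11 counts or fewer in either library. No member with 100 or more counts differed 2-fold, whereas 1.16% of 14821 such genes were 2-fold higher and 6.92% were 2-fold lower in the middle-aged library. The intervals cover counting error of 1 library per age. Antisense genes overlap *Cd274* and *Pdcd1lg2*, and the bulk reads were counted without regard to strand.

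Age gave far fewer calls than day in the single-cell libraries. Of 84 tests of members with day as a block, 2 were called, both higher in middle-aged mice, against 0.333% of 100854 gene tests. An unadjusted p under 0.05 was found in 26 of the 84. The share of all genes at that unadjusted threshold is not given, so the 26 cannot be set against the 0.333%. Both calls were in cluster 5, where 0.655% of genes were called, for *Ctla4* (1.07 ± 0.20, SE, log2, adjusted p = 0.028) and *Icos* (0.90 ± 0.18, SE, log2, adjusted p = 0.033). The T cell marker CPM of cluster 5 was also higher in the middle-aged library on each day, and without cells that held T cell marker UMIs no member was called by age in any cluster. DESeq2 called neither gene (adjusted p = 0.31 and 0.27).

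In T cell-like cells 0 of 10 members were called by age with edgeR, and *Lag3* and *Tigit* were the 2 at an unadjusted p under 0.05, while 0.0616% of genes were called. *Ctla4* and *Icos* were higher in the middle-aged library on both days. The middle-aged to young log2 ratio was 0.15 (exact 95% interval 0.040 to 0.25) on day 6 and 0.36 (0.30 to 0.43) on day 10 for *Ctla4*, and 0.23 (0.15 to 0.31) and 0.37 (0.31 to 0.43) for *Icos*. *Havcr2* was higher in middle-aged mice on day 6, at 1.05 (0.79 to 1.32), and stood at -0.11 (-0.24 to 0.022) on day 10. Over the 6 receptors the median ratio was 0.50 on day 6 and 0.19 on day 10. Over genes with 100 or more UMIs in both libraries together it was -0.066 and 0.065. *Pdcd1* was lower in middle-aged mice on day 6, at -0.23 (-0.41 to -0.056). *Tigit*, which enters the median of the receptors but falls below that filter, stood at 0.77 (-0.15 to 1.73) on day 6, from 17 and 28 UMIs. With 1 library per age and day these ratios have no replicate.

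The 3 genes whose levels were most like those of each member were taken over 52 sums of cluster and library, which share libraries and depth. *Icos* was nearest to *Trbc2* (Pearson r = 0.97), *Trbc1* and *Cd3g*, *Ctla4* to *Thy1* (0.95), *Cd3g* and *Trbc2*, and *Pdcd1* to *Cd4* (0.92), *Klk8* and *Tnfsf8*. *Lag3* was nearest to *Tdrkh* (0.89), *Klk8* and *Bik*. *Cd274* was nearest to *Gbp5* (0.96), *Gbp2* and *Irgm1*, which encode interferon-induced GTPases. *Cd86* came closest to *Tbc1d9* (0.91), *Pld4* and *Ifi30*, *Cd80* to *Snx20* (0.87), *Ptpn1* and *Csrnp1*, *Pdcd1lg2* to *Bhlhe40* (0.83), *Relb* and *Mllt6*, and *Havcr2* to *Cysltr1* (0.84), *Nupr1* and *Surf4*. *Tigit* had fewer than 500 UMIs and was not compared.

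In NK cell-like cells *Tigit* was at 14.5, 15.9, 7.63 and 8.54 CPM, from only 14, 6, 7 and 6 UMIs. In T cell-like cells it was at 2.40, 4.08, 5.70 and 8.54 CPM, lower in each library except the middle-aged day 10 one, where the levels were nearly equal. *Lag3* rose in NK cell-like cells from 9.32 and 10.6 CPM to 34.9 and 22.8 CPM (1.69 ± 0.46, SE, log2, adjusted p = 0.015, and 1.07 without either young library), in a cluster where 2.24% of genes were called. These levels rest on 9, 4, 32 and 16 UMIs, 45.7% to 67.7% of the cells held 2 or more T cell marker UMIs, and the cells without any (46, 17, 55 and 35) held 0, 0, 1 and 2 *Lag3* UMIs. The call was lost without cells that held markers of another lineage (1.19, adjusted p = 0.48). Unnamed cluster 11, led by basophil genes but also rich in T cell and dividing cell markers, held *Ctla4* at 84.2 to 248 CPM and *Lag3* at 8.91 to 92.2 CPM, and *Cd274* fell there (-1.37 ± 0.21, SE, log2, adjusted p = 0.016), where 2.19% of genes were called. In B cell-like cells 0 of the 4 members tested were called by day with edgeR, with 1 at an unadjusted p under 0.05, while 2.77% of genes were called. Clusters 6 and 12 to 15 had fewer than 50 cells in a library and were not tested.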

How the data were processed

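Libraries were sequenced from CD45+ cells (10x Genomics 3′ v3) and counted by the authors with Cell Ranger 3.1.0 on mm10. The deposited single-cell table holds unnormalised UMI counts, with a library and a cluster number for each cell, after the authors' filters on cells and genes and their Louvain clustering of integrated data. The deposited bulk values are read counts per gene from featureCounts, without strand. No column was left unmapped.

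UMI counts were summed per cluster and library in Python 3.11.15 (numpy 2.4.6, scipy 1.17.1, pandas 2.3.3, matplotlib 3.10.9). For the 11 clusters with at least 50 cells in each library, age and day were fitted together in edgeR 4.0.16 (limma 3.58.1, R 4.3.3) by the quasi-likelihood test with TMM scaling, on genes with 10 or more counts in 2 or more libraries, with 1 residual degree of freedom, called at an adjusted p below 0.05. The spread between libraries may be technical. DESeq2 1.42.0 was an alternative. The tests were tried on simulated counts with planted changes. Those counts held no handling difference between libraries, so the trial cannot show how such a difference would affect the calls. With 1 library per group, ratios have exact conditional 95% binomial intervals, which cover counting error only. Shares of cells were also taken after thinning each cell to 2000 UMIs. No doublet caller was run, and clusters were not computed again. Cells holding 2 or more UMIs of markers of another lineage (5 for neutrophil markers) were left out in an alternative.

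A cluster was named for the type with the highest median marker ratio, and was left unnamed where that type was dividing cells, where a second type other than dividing cells also stood at least 2-fold above other cells, or where another type held more of the 10 leading genes. The latter conditions, and the alternative without cells holding T cell markers, were set after seeing the data. The members and lists were chosen with earlier results of these data known. Genes of the lists were named where called in T cell-like cells, or as partner ligands in myeloid clusters, at most the 3 largest per list and cluster, and the 3 genes most like each member with 500 or more UMIs by Pearson correlation of log2(CPM + 1).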

Additional observations from a re-analysis of the deposited data

Results flagged for a closer look

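In several clusters a member was higher in middle-aged than in young mice on 1 day and lower on the other. Listed are log2 ratios of CPM whose counting intervals both excluded 0. Comparisons with fewer than 100 UMIs were not listed. Among those left out was *Pdcd1* in NK cell-like cells, at 7.24, 44.9, 40.3 and 7.12 CPM from 7, 17, 37 and 5 UMIs. With 1 library per age and day the differences between days were not tested, and differences between single libraries enter each of them.

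In T cell-like cells *Lag3* stood at 1.91 on day 6 and -0.11 on day 10, and *Pdcd1lg2* at 0.81 and -0.20. In monocyte/macrophage-like cluster 1 *Cd274* stood at 0.43 and -0.37, *Pdcd1lg2* at 1.29 and -0.39, and *Havcr2* at 0.31 and -0.14. In microglia-like cluster 10 *Cd274* stood at 0.95 and -0.58 and *Cd86* at 0.41 and -0.24, whereas *Lag3* went from -0.51 to 0.38. In dendritic cell-like cells *Icos* stood at -0.45 on day 6 and 1.23 on day 10, in a cluster whose T cell markers were at 306 CPM (young) and 257 CPM (middle-aged) on day 6 and at 337 and 554 CPM on day 10. In cells of that cluster without a T cell marker UMI *Icos* was at most 3.38 CPM.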

How the results depend on the processing

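The count of 32 members by cluster called by day was 21 with DESeq2 and 21 with age left out, and lay between 22 and 37 under the other 7 alternatives. The count of 2 called by age was 5 with library totals, 13 with no filter, 0 with 20 counts in 3 libraries, 1 with DESeq2, and 0 with day left out, without cells of another lineage or without cells holding T cell markers. Directions turned for *Havcr2* in cluster 0 with library totals (0.057) and for *Cd80* in cluster 5 without cells of another lineage (0.12), and the cause was not tested. In T cell-like cells DESeq2 called 1 receptor in place of 3, and of 3 partner receptors 5 were called with library totals, 1 with DESeq2 and 5 without cells of another lineage. The 1 partner ligand became 2 with RLE factors or with cells of 1000 or more UMIs, 3 with no filter or with 20 counts in 3 libraries, and 4 without cells of another lineage. The share of young day 10 T cell-like cells with *Lag3* (21.1%) was 13.1% at 1000 UMIs and 39.8% without thinning, and that of *Foxp3* cells with *Ctla4* in the middle-aged day 10 library (71.7%) was 54.1% and 86.4%. Library totals moved the median day change of all genes by 0.76 (log2) in cluster 0, 0.29 in cluster 5, 0.28 in cluster 8, 0.25 in cluster 3, 0.17 in cluster 1, 0.15 in cluster 10, 0.13 in cluster 11 and 0.11 in T cell-like cells. Leaving out a library leaves no residual degree of freedom, so only values without a test were had. No paired analysis was possible because the labels carry no replicate numbers and there is 1 library per age and day. The depth limits *Tigit* most.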
